A study of Mus musculus with 9 samples.

Results

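The immediate early genes described here are Fos, Fosb, Jun, Junb, Egr1, Ier2, Atf3, Dusp1, Btg2 and Nr4a1, 10 of the 27360 rows of 1 expression table from fetal mouse midbrain. They were chosen by name as genes of the rapid transcriptional response, and each was found in exactly 1 row by its symbol. Of the 10 genes, 9 were among the 14029 genes with enough expression to be tested, and Fosb was not.

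Immediate early genes are transcribed within minutes of a stimulus, from factors that are already in the cell and without new protein synthesis. Growth factors act on many of them through the ERK kinases and serum response factor, stress through the JNK and p38 kinases, and cyclic AMP through protein kinase A and CREB. Fos, Fosb, Jun and Junb pair as the AP-1 factor, Egr1 and Nr4a1 are a zinc finger factor and an orphan nuclear receptor, and Dusp1 and Btg2 restrain kinase signalling and proliferation. In the developing brain Btg2 is also known for another use, as a mark of the progenitors that divide to give neurons.

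Midbrain was dissected on ice at E13.5 from C57BL/6 embryos of 3 genotypes, with 3 libraries each, labelled Gpr161f/f (floxed controls), Gpr161f/+;Wnt1-Cre (Cre controls) and Gpt161f/f;Wnt1-Cre. The last label is read as Gpr161f/f;Wnt1-Cre and is called cKO. Every animal carried at least 1 floxed Gpr161 allele, and Cre controls carried the transgene together with a single floxed allele. Cre was driven by Wnt1 sequences, active in the midbrain and the neural crest, so cells outside that lineage keep the gene, and the tissue was sequenced as a whole. Gpr161 is a ciliary receptor that raises cyclic AMP and holds back Hedgehog signalling.

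The authors deposited log2 values, normalized so that libraries can be compared, and no read counts are given, so the depth of the libraries is unknown. Libraries differ less where expression is low, the median SD being 0.0317 for genes with a mean between 2 and 3 and 0.103 for those between 8 and 10. A small fold change or SE of a weak member such as Fos therefore does not by itself show a precise measurement. Whether the unstated transformation narrows differences there was not tested. The level of Gpr161 was not lower in the libraries labelled cKO, at 11.74 to 11.96 against 11.74 to 11.80 in floxed controls and 11.77 to 11.96 in Cre controls. The value covers the whole gene and does not separate its exons, and every direction below is between libraries as labelled. For the labelled tissue, 10 midbrain markers, all of them tested, had a summed linear level (2 to the power of each value) of 16550 to 19942 over the 9 libraries. No markers of another brain region were set beside them, so this sum does not test the dissection. In bulk tissue, fewer cells of a type and less RNA per cell cannot be told apart.

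The start regions of 4 members are shown as examples of the cyclic AMP response element (CRE), the site bound by CREB, or its core. Other members carry the core too, so it does not single out these 4. In the cKO against floxed controls Btg2 and Junb rose and Dusp1 fell, while Fos passed in no comparison. Of the members, 8 were searched in the RefSeq promoter table of GRCm38.p6. Ier2 had no entry there, and Egr1 was left out of the search. The 250 bases before the start are printed, with each CRE and core in capitals.
Btg2, chr1:134079156-134079405, minus strand: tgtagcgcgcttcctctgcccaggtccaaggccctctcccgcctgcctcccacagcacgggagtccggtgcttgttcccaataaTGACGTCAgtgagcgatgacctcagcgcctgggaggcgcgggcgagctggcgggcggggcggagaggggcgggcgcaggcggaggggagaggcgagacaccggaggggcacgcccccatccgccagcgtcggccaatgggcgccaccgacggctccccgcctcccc
Dusp1, chr17:26508473-26508722, minus strand: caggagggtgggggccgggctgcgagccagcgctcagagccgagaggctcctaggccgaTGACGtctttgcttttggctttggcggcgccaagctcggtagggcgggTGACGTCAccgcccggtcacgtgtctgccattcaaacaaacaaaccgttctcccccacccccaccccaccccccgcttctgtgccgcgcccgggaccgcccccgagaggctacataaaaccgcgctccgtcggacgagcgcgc
Junb, chr8:84978749-84978998, minus strand: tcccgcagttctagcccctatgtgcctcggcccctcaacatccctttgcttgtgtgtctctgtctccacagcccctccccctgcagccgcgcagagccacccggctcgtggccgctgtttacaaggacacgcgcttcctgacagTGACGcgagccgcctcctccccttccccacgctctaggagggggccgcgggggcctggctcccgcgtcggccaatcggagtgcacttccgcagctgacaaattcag
Fos, chr12:85473640-85473889, plus strand: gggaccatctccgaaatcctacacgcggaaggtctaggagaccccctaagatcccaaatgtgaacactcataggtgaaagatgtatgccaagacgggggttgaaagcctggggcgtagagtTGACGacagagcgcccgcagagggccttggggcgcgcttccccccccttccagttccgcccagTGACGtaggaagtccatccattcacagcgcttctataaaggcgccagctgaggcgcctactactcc

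The full CRE, TGACGTCA, lay in this window of 2 of the 8 members, Btg2 and Dusp1, beginning 166 and 143 bases before the start. It was present in 1.55% of the same windows of 32851 RefSeq promoters. The core, TGACG on either strand, which each full site contains, lay in 7 of the 8, all but Jun, against 17.8% of the windows. The AP-1 site TGANTCA (6.75% of windows) and the CArG box bound by serum response factor (1.47%) were found in 0 of the 8. The sequence TATAAA (12.4% of windows) lay in 1 member, Fos, and CCAAT (33.8%) in 3 members, Btg2, Jun and Junb. These are matches of letters in 1 window and say nothing of binding in this tissue.

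Expressed per kb of merged exon, so that genes could be set side by side, the level spanned a wide range. Btg2 had a median linear value of 1096 per kb over the 9 libraries, Jun 572, Ier2 342, Dusp1 323 and Junb 80.9. Below them lay Atf3 at 26.7, Egr1 at 20.2, Nr4a1 at 14.9, Fos at 13.2 and Fosb at 1.34. The ranges over the libraries overlapped between Ier2 and Dusp1, between Atf3 and Egr1, between Egr1 and Nr4a1 and between Nr4a1 and Fos, so the order of these neighbours is not fixed. Thus Btg2 and Jun were the most abundant members in this midbrain tissue, and Fosb was the least.

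**Figure D1:**
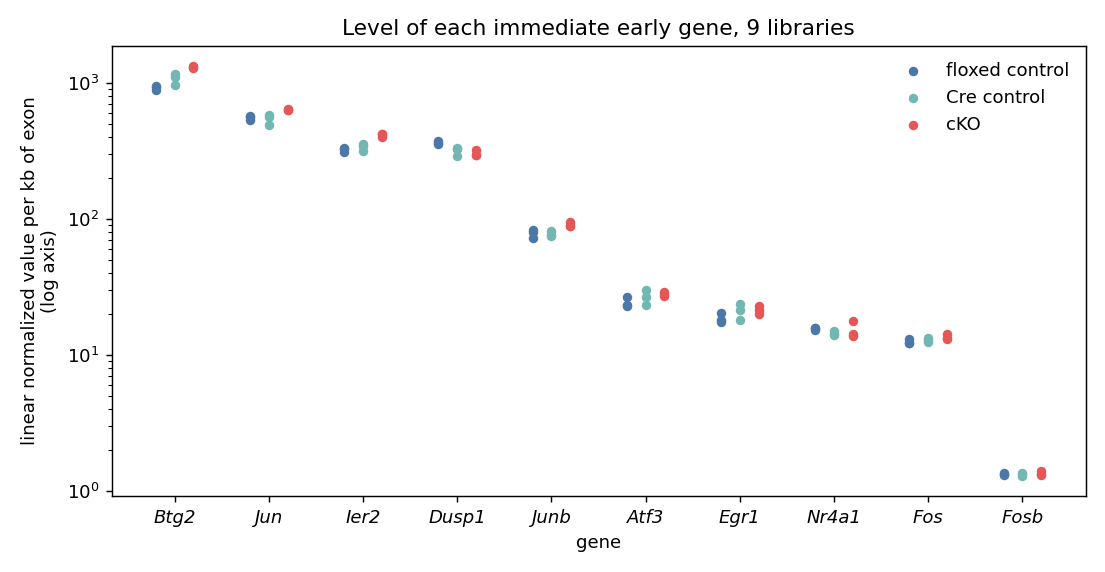
Linear normalized value per kb of merged exon (log axis) for each immediate early gene, with 1 point per library and 3 libraries per genotype in colour. Btg2 and Jun, with medians of 1096 and 572, lie far above Fos and Fosb, with 13.2 and 1.34.

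Fos, the founding partner of the AP-1 factor (chr12:85473890-85477273 in GRCm38), had log2 values of 4.70, 4.80 and 4.69 in floxed controls, 4.83, 4.77 and 4.71 in Cre controls and 4.79, 4.81 and 4.92 in the cKO. The 3 genotypes overlapped. Its log2 fold change was 0.11 against floxed controls (SE 0.056, 95% interval -0.014 to 0.24, limma adjusted p = 0.143) and 0.071 against Cre controls (95% interval -0.054 to 0.20, adjusted p = 0.426). Fos lay at the limit of expression for testing, at 0.946 to 1.10 cpm, and reached 1 cpm in 1 floxed control, 2 Cre control and 3 cKO libraries. Fosb, its close paralog (chr7:19302696-19310051), lay between 2.30 and 2.41 on the log2 scale in the 9 libraries, reached 1 cpm in 0 of them and was not tested.

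Jun, the partner that can also pair with itself in AP-1 (chr4:95049034-95052222), had log2 values of 10.73, 10.83 and 10.79 in floxed controls, 10.60, 10.84 and 10.81 in Cre controls and 11.00, 10.96 and 10.98 in the cKO. The cKO libraries lay above all 6 controls and close together. Jun rose in the cKO by a log2 fold change of 0.19 against floxed controls (SE 0.061, limma adjusted p = 0.0295) and of 0.23 against Cre controls (SE 0.061, adjusted p = 0.0448). Leaving out 1 library ended the first call without floxed control replicate 1 or 3 (adjusted p = 0.103 and 0.0717 by limma) or cKO replicate 1, 2 or 3 (0.0858, 0.0636 and 0.0675). The second was lost without Cre control replicate 3 (limma adjusted p = 0.0864) or cKO replicate 1, 2 or 3 (0.149, 0.0970 and 0.0910). It was also lost with no filter on low values (limma adjusted p = 0.0625), with only the 6 libraries compared (0.0897) and in eBayes without a trend (0.0539).

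Junb, a Jun relative that can temper the activity of Jun (chr8:84974484-84978718), had log2 values of 7.03, 7.22 and 7.18 in floxed controls, 7.09, 7.10 and 7.19 in Cre controls and 7.32, 7.32 and 7.41 in the cKO. Again the cKO libraries lay above every control. Junb rose by 0.21 against floxed controls (SE 0.064, limma adjusted p = 0.0253), and against Cre controls its log2 fold change of 0.23 (SE 0.064, adjusted p = 0.0526) did not pass. The first call was lost without floxed control replicate 1 or 3 (adjusted p = 0.0921 and 0.0510 by limma) or cKO replicate 1 or 3 (0.0524 and 0.0853). The second passed with quantile normalization (limma adjusted p = 0.0304) and without a trend (0.0439), and over all alternatives its adjusted p lay between 0.0304 and 0.134.

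Atf3, a stress-induced factor of the ATF/CREB family that can pair with Jun (chr1:191170296-191218039), had log2 values of 5.62, 5.85 and 5.66 in floxed controls, 5.64, 6.03 and 5.84 in Cre controls and 5.97, 5.86 and 5.92 in the cKO. The cKO libraries lay just above floxed controls, while Cre controls spanned much of the range of both. The log2 fold change was 0.21 against floxed controls (SE 0.095, 95% interval -0.0066 to 0.42, limma adjusted p = 0.114) and 0.077 against Cre controls (95% interval -0.13 to 0.29, adjusted p = 0.619). With only the 6 libraries compared, the first passed (limma adjusted p = 0.0422), within a range of 0.0422 to 0.287 over the alternatives.

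Egr1, a zinc finger factor and a common readout of ERK signalling, had log2 values of 6.29, 6.50 and 6.33 in floxed controls, 6.34, 6.72 and 6.60 in Cre controls and 6.58, 6.48 and 6.68 in the cKO. The highest library was of a Cre control, and the genotypes overlapped. The log2 fold change was 0.20 against floxed controls (SE 0.10, 95% interval -0.021 to 0.43, limma adjusted p = 0.136) and 0.029 against Cre controls (95% interval -0.20 to 0.25, adjusted p = 0.871).

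Nr4a1, an orphan nuclear receptor also known as Nur77 (chr15:101254269-101274795), had log2 values of 5.35, 5.40 and 5.42 in floxed controls, 5.32, 5.27 and 5.23 in Cre controls and 5.25, 5.58 and 5.21 in the cKO. A single library, cKO replicate 2, was higher than all others, and the other cKO libraries were as low as Cre controls. The log2 fold change was -0.042 against floxed controls (SE 0.087, 95% interval -0.23 to 0.15, limma adjusted p = 0.726) and 0.072 against Cre controls (95% interval -0.12 to 0.26, adjusted p = 0.614). Without cKO replicate 2, the former was -0.16 (limma adjusted p = 0.0634) and the latter -0.044 (0.666).

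Ier2, a small nuclear protein named for its immediate early response (chr8:84661331-84662852), had log2 values of 8.87, 8.97 and 8.94 in floxed controls, 8.91, 9.06 and 9.02 in Cre controls and 9.32, 9.24 and 9.32 in the cKO. The lowest cKO library lay above the highest control, and the controls overlapped. Ier2 rose in the cKO by 0.37 against floxed controls, 1.29-fold (SE 0.056, limma adjusted p = 0.00129), and by 0.29 against Cre controls, 1.23-fold (SE 0.056, adjusted p = 0.0169). The first passed under every alternative run, with adjusted p between 0.00103 and 0.00691 by limma. The second was lost without Cre control replicate 3 (limma adjusted p = 0.0524) or cKO replicate 1 (0.0673).

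Btg2, an antiproliferative factor that is also switched on in neurogenic divisions (chr1:134075170-134079120, with the CRE printed above), had log2 values of 11.33, 11.24 and 11.31 in floxed controls, 11.63, 11.37 and 11.55 in Cre controls and 11.79, 11.77 and 11.81 in the cKO. The 3 genotypes did not overlap, with Cre controls between the other two. Btg2 rose in the cKO by 0.50 against floxed controls, 1.41-fold (SE 0.060, limma adjusted p = 5.80e-04), and by 0.27 against Cre controls, 1.21-fold (SE 0.060, adjusted p = 0.0259). The difference of 0.22 between the controls did not pass (95% interval 0.088 to 0.36, limma adjusted p = 0.166). The call against floxed controls held in every alternative (adjusted p between 1.52e-04 and 0.00383 by limma). The call against Cre controls was lost when Cre control replicate 3 was left out (limma adjusted p = 0.0690), when cKO replicate 1, 2 or 3 was left out (0.0922, 0.0626 and 0.0622) and with only the 6 libraries compared (0.0636).

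Dusp1, a phosphatase that switches off the p38, JNK and ERK kinases (chr17:26505590-26562128, a span that includes 1 transcript model reaching far upstream), had log2 values of 9.72, 9.74 and 9.78 in floxed controls, 9.41, 9.60 and 9.58 in Cre controls and 9.46, 9.44 and 9.56 in the cKO. It was the member that moved the other way, since both groups with the transgene lay below floxed controls and overlapped each other. Dusp1 fell by 0.26 in the cKO against floxed controls (SE 0.060, limma adjusted p = 0.00781), and this call held under every alternative (adjusted p between 0.00332 and 0.0339). Against Cre controls its log2 fold change was -0.045 (95% interval -0.18 to 0.089, limma adjusted p = 0.649). Between the controls it was -0.22 (95% interval -0.35 to -0.082, adjusted p = 0.166).

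**Figure D2:**
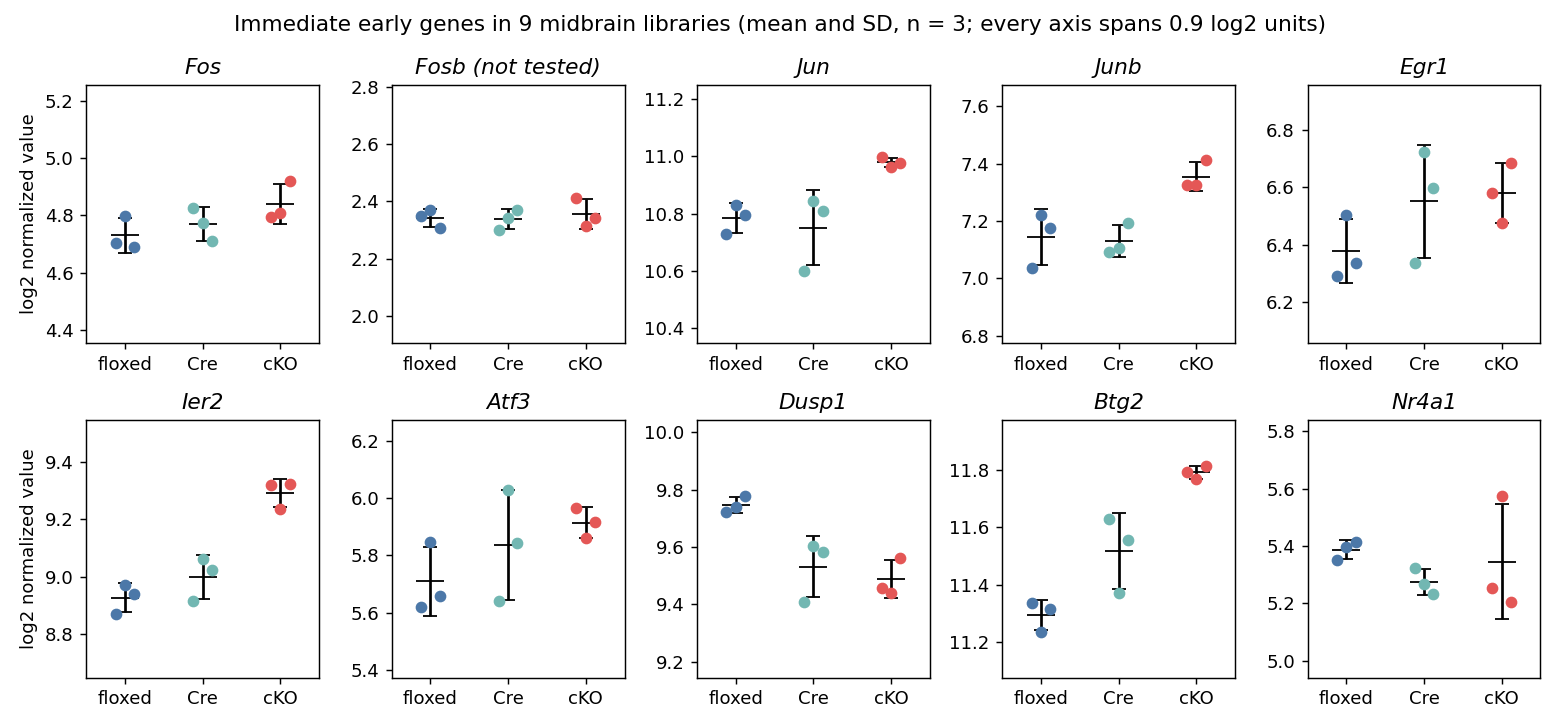
Log2 normalized value of each immediate early gene in the 9 libraries, with the 3 replicates of each genotype as points in order from left to right and the mean and SD as bars. In Jun, Junb, Ier2 and Btg2 the 3 cKO libraries lie above all 6 controls, while Dusp1 is highest in floxed controls.

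Over the members, cKO against floxed controls asks what differs when both the deletion and the transgene are added. Of the 9 genes tested, 5 passed an adjusted p under 0.05 by limma, beside 38.3% of all genes. Of these, 4 rose (19.5% of all genes), Jun, Junb, Ier2 and Btg2, and 1 fell (18.8% of all genes), Dusp1. None of the 9 also exceeded a fold change of 1.5, beside 2.92% of all genes. The groups did not overlap for 6 of the 9 (57.1% of all genes). With 9 genes, these counts are a description beside the shares of all genes. The members' median log2 fold change was 0.20, with 7 of 9 above 0, beside 0.011 and 52.4% over all genes. The count passing dropped from 5 to 3 without floxed control replicate 1 or 3 or cKO replicate 1 or 3. Calls over all genes with 1 library left out are not set beside this count.

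Against Cre controls, which share the transgene and differ by a floxed allele, 3 of 9 members passed by limma, beside 9.72% of all genes. All 3 rose (4.86% of all genes), namely Jun, Ier2 and Btg2. A fold change over 1.5 with a passing adjusted p was reached by 0 of 9 members (0.563% of all genes), and 4 of 9 did not overlap (31.5% of all genes). At an unadjusted p under 0.05 there were 4 members (29.3% of all genes). The median log2 fold change was 0.077, with 8 of 9 above 0, beside 0.012 and 53.7% over all genes. The count passing dropped from 3 to 0 without Cre control replicate 3 or cKO replicate 1, to 1 without cKO replicate 2 or 3 and to 1 with only the 6 libraries compared. With only those 6 libraries the calls over all genes also fell, from 1363 to 437. Calls over all genes with 1 library left out are not set beside these counts. This comparison shares its cKO libraries with the one before.

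Between Cre controls and floxed controls, 0 of 9 members passed by limma, beside 0.057% of all genes, and 2 members, Dusp1 and Btg2, had an unadjusted p under 0.05 (17.5% of all genes). These groups did not overlap for 3 members, Dusp1, Btg2 and Nr4a1 (22.8% of all genes). The median log2 fold change was 0.040. When the cKO was set against the 6 control libraries at once, 4 of 9 members lay outside all of them (26.2% of all genes), and these were Jun, Junb, Ier2 and Btg2, all of them higher.

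**Figure D3:**
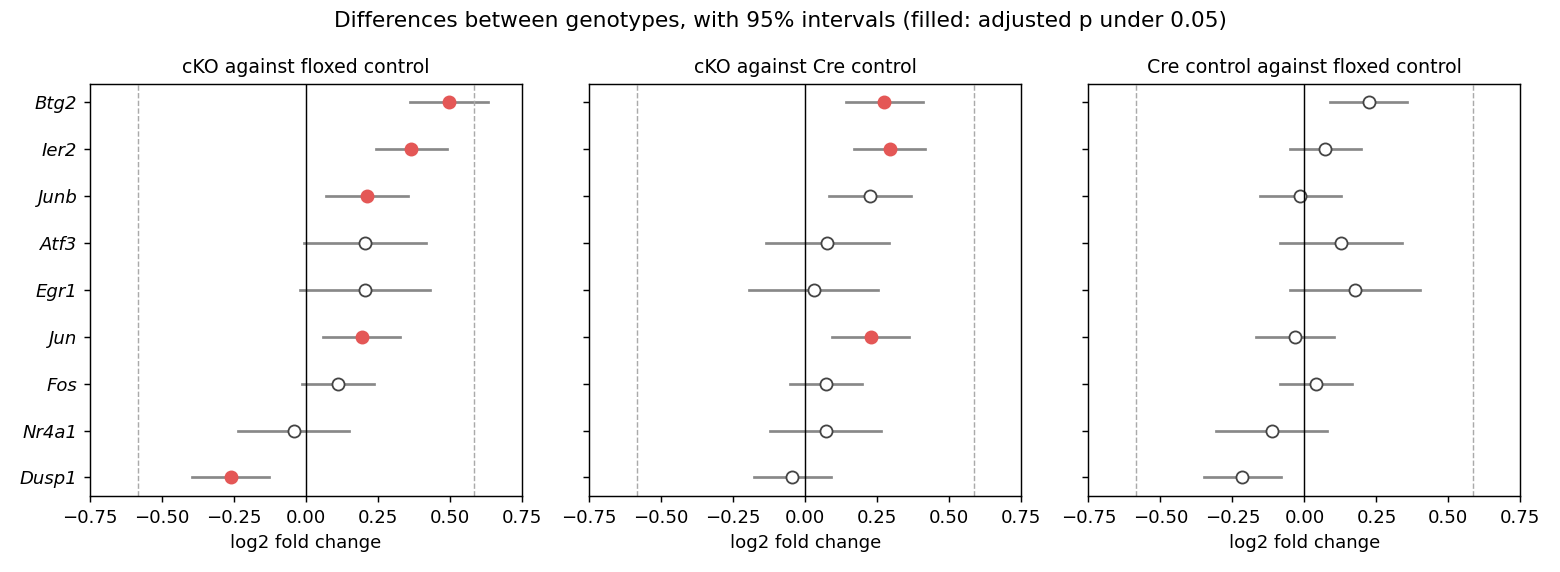
Log2 fold change of the 9 immediate early genes tested in the 3 comparisons, with 95% intervals as lines, an adjusted p under 0.05 as a filled point and a fold change of 1.5 as dashed lines. Against floxed controls 5 genes passed and against Cre controls 3, with no point beyond the dashed lines.

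Immediate early genes are known to respond to the handling of tissue as well as to signals, and their spread between fetuses of 1 genotype was compared with that of other genes at the same expression. The variance within genotypes was 2.81 times limma's trend for Egr1, which lay at percentile 83.5 among the genes tested, 2.66 times for Atf3 and 2.26 times for Nr4a1. It was 1.98 times for Btg2, 1.76 times for Jun and 1.05 times for Dusp1. Fos, Junb and Ier2 varied less than the trend, at 0.67, 0.66 and 0.60 times. In all, 6 of 9 members lay above the trend, beside 52.5% of all genes, and Egr1 and Atf3 were its most variable genes.

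The replicates also deviated from their genotype means in a shared way for some members. Floxed control replicate 1 was the lowest of its group for 7 of 9 members and replicate 2 the highest for 6. Cre control replicate 1 was the lowest for 6 and replicate 2 the highest for 5, and in the cKO replicate 2 was the lowest for 7 and replicate 3 the highest for 6. Shares over all genes are not set beside these counts, and whether the pattern is particular to the members was not tested. Jun, Egr1, Ier2, Atf3 and Dusp1, a set formed after the values were seen, had deviations that correlated pairwise at r = 0.64 to 0.94 (median 0.89) over the 9 libraries. Btg2 ran against them, with r from -0.90 to -0.53. These correlations share their libraries and are a description. Over all 36 pairs of members, 19 were positive, with a median of 0.053. Without Cre controls, a choice made after seeing the data, the pairwise r among the 5 genes ranged from 0.039 to 0.89 (median 0.74) and that of Btg2 from -0.74 to 0.35, so Btg2 then took either sign.

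In Cre control replicate 1, the deviation from the genotype mean on the log2 scale was -0.22 for Egr1, -0.19 for Atf3 and -0.15 for Jun, beside 0.11 for Btg2. In replicate 2 of the same genotype the order was turned, with Atf3 at 0.19, Egr1 at 0.17 and Btg2 at -0.15. The 5 genes outside the group whose deviations over the 9 libraries were most like the members' mean deviation were Ctsd (r = 0.987), Hcfc1r1 (0.987), C2cd2l (0.986), Tnip1 (0.981) and Ccdc151 (0.979). They head a ranking of the other genes among the 14029 tested, so their high r is part of how they were chosen.

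**Figure D4:**
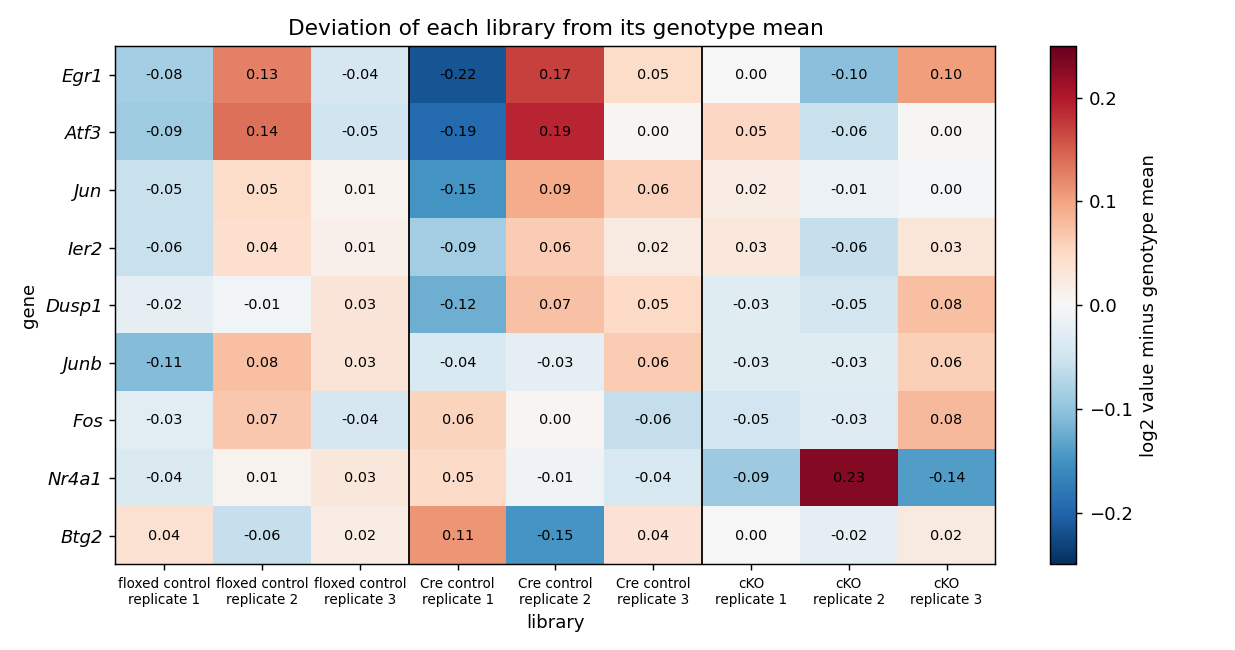
Log2 value minus the genotype mean (colour and printed number) for the 9 immediate early genes tested, in rows, and the 9 libraries, in columns. Egr1, Atf3, Jun, Ier2 and Dusp1 are low in Cre control replicate 1 and high in Cre control replicate 2, where Btg2 takes the opposite sign, and Nr4a1 stands out in cKO replicate 2 at 0.23.

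Other genes of the rapid response moved in both directions. Of 41 such genes, 36 were tested, and Egr2, Egr3, Egr4, Npas4 and Ptgs2 were too low. Against floxed controls 10 rose and 6 fell by limma, beside 19.5% and 18.8% of all genes. The median log2 fold change of the 36 was 0.022, close to the 0.011 of all genes. Among those that rose were Zfp36l1, which binds AU-rich mRNA (0.24, SE 0.045, adjusted p = 0.00341), Fosl2, a Fos relative (0.41, SE 0.097, adjusted p = 0.00837), and Gadd45g, a growth arrest gene (0.32, SE 0.075, adjusted p = 0.00878). Rgs2, a brake on G protein signalling, fell by 0.28 (SE 0.057, limma adjusted p = 0.00421), Arc, a synaptic activity gene, fell by 0.26 (SE 0.055, adjusted p = 0.00564) and Homer1, a synaptic scaffold, fell by 0.18 (SE 0.040, adjusted p = 0.00623). The number that rose was 6 without cKO replicate 1 or 3, 5 without cKO replicate 2, 4 without floxed control replicate 1 and 3 without floxed control replicate 3.

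Set against Cre controls, 1 of these genes rose and 1 fell, beside 9.72% of all genes that passed in either direction. Rgs2 fell by 0.23 (SE 0.057, limma adjusted p = 0.0364), a call lost without Cre control replicate 3 (adjusted p = 0.121) or cKO replicate 1 or 2 (0.112 and 0.0699), and also with no filter (0.0531) or only the 6 libraries compared (0.0859). Plk3, a stress-responsive kinase named after its values were seen, rose by 0.25 (limma adjusted p = 0.0476). Its call was lost without any 1 of the 6 libraries (adjusted p from 0.0510 to 0.147), and also with no filter (0.0616), median centring (0.0533), quantile normalization (0.0573) or only the 6 libraries compared (0.0540). Gadd45g, at 0.20 higher on the log2 scale (limma adjusted p = 0.119), passed when Cre control replicate 1 was omitted (0.0438).

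The kinases and factors that switch these genes on showed no common direction. Of 28 upstream regulators, 5 rose and 7 fell against floxed controls by limma, beside 19.5% and 18.8% of all genes. Their median log2 fold change was -0.040. Mapk8 and Mapk9, which encode the JNK kinases that phosphorylate Jun, fell by 0.31 (SE 0.048, limma adjusted p = 0.00144) and by 0.26 (SE 0.051, adjusted p = 0.00343). Crtc1, a CREB coactivator, fell by 0.26 (SE 0.050, limma adjusted p = 0.00344). Map2k1, the kinase above ERK, rose by 0.28 (SE 0.049, limma adjusted p = 0.00236), and so did Atf1, a CREB relative, by 0.22 (SE 0.052, adjusted p = 0.00920). The counts were 2 that rose and 4 that fell without cKO replicate 1 or floxed control replicate 3. The number that rose was also 2 without cKO replicate 2 and 3 without cKO replicate 3 or floxed control replicate 1.

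In the comparison with Cre controls 1 of the 28 passed, beside 9.72% of all genes. This was Rps6ka5, a kinase that acts on CREB and histone H3, which fell by 0.27 (SE 0.061, limma adjusted p = 0.0274). It was lost without Cre control replicate 3 (adjusted p = 0.0841) or cKO replicate 1, 2 or 3 (0.0825, 0.0605 and 0.0699), and with only the 6 libraries compared (0.0601). Mapk8 differed by -0.15 on the log2 scale between cKO and Cre controls (limma adjusted p = 0.0742), and passed with median centring (0.0446), quantile normalization (0.0362) or Cre control replicate 1 omitted (0.0184). Mapk9 differed by -0.15 there (limma adjusted p = 0.0829), and passed with quantile normalization (0.0467) or that library omitted (0.0062). Without Cre control replicate 1, 1 of the 28 rose and 6 fell.

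The feedback genes of the ERK pathway, a list of 15 that includes Fos and Egr1, were mostly higher in both transgenic groups than in floxed controls. Between the controls their median log2 fold change was 0.17, with 13 higher and 2 lower in Cre controls. In the cKO against Cre controls it was 0.056, with 11 higher and 4 lower. In the cKO against floxed controls 8 rose and 1 fell by limma, beside 19.5% and 18.8% of all genes. The median log2 fold change there was 0.20. Spry1, which restrains receptor tyrosine kinase signalling, rose by 1.02 (SE 0.092, limma adjusted p = 1.90e-04), Il17rd, an inhibitor of Fgf signalling, by 0.91 (SE 0.082, adjusted p = 1.90e-04), Dusp6, an ERK phosphatase, by 0.74 (SE 0.053, adjusted p = 1.21e-04) and Spry4 by 0.56 (SE 0.053, adjusted p = 2.21e-04). The number that rose was 5 without cKO replicate 2 or 3 or floxed control replicate 2. The gene that fell was Dusp4, named after its values were seen (-0.27, limma adjusted p = 0.0418), and it fell short without cKO replicate 1 or 2 or any 1 floxed control library. Thus Egr1 and Fos, at 0.20 and 0.11, did not pass while Spry1, Il17rd, Dusp6 and Spry4 did, and the difference between them was not tested.

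These same 4 feedback genes passed against Cre controls, all of them higher, beside 4.86% of all genes. The log2 fold change was 0.50 for Spry1, 0.48 for Il17rd, 0.28 for Spry4 and 0.26 for Dusp6 (adjusted p = 0.0152, 0.0121, 0.0161 and 0.0206 by limma). Of these 4, 1 passed when Cre control replicate 3 was omitted, and the number was 2 for cKO replicate 2. Spry1 was lost without Cre control replicate 3 (adjusted p = 0.0586), Spry4 without that library (0.0577) or cKO replicate 2 (0.0554), and Dusp6 without Cre control replicate 2 or 3 (0.0543 and 0.0681) and likewise cKO replicate 1, 2 or 3 (0.0511, 0.0512 and 0.0522). Between the controls Dusp6 alone passed, at 0.48 (limma adjusted p = 0.0152), and it was lost without Cre control replicate 3 (0.0575) or floxed control replicate 3 (0.0687), and with only the 6 libraries compared (0.0697).

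Heat shock genes, which mark stress of a tissue or its handling, also moved. Of 14 tested, 7 rose and 1 fell against floxed controls by limma, beside 19.5% and 18.8% of all genes. The median log2 fold change was 0.14. Hspb1, a small heat shock protein, rose by 1.09 (SE 0.18, limma adjusted p = 0.00179) and Hspe1, a mitochondrial chaperonin, by 0.34 (SE 0.063, adjusted p = 0.00285). The gene that fell was Dnaja1, named after its values were seen (-0.15, limma adjusted p = 0.0189). It fell short without cKO replicate 1 or 2 or floxed control replicate 1 or 3, so that the count was then 0. Only Hspd1 passed against Cre controls, at 0.14 (limma adjusted p = 0.0465), beside 9.72% of all genes. That call was lost without Cre control replicate 2 or 3 (limma adjusted p = 0.106 and 0.104) and likewise cKO replicate 1, 2 or 3 (0.171, 0.0889 and 0.0855). Hspd1 also did not pass without a trend (limma adjusted p = 0.0648), with median centring (0.0627), no filter (0.0617), quantile normalization (0.0501) or only the 6 libraries compared (0.101). The number was 4 without Cre control replicate 1. The summed linear level of the 14 was 186390 to 189490 in floxed controls, 182700 to 208020 in Cre controls and 194290 to 206890 in the cKO, and the part of stress in the members' differences was not tested.

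Because Btg2 is used in neurogenic divisions, 14 genes of neurogenic progenitors were read beside it. Against floxed controls 5 rose and 2 fell by limma, beside 19.5% and 18.8% of all genes. Mfng, a modifier of Notch, rose by 0.38 (SE 0.061, limma adjusted p = 0.00164), Neurog2, a proneural factor, by 0.37 (SE 0.074, adjusted p = 0.00391) and Dll3, a Notch ligand, by 0.25 (SE 0.056, adjusted p = 0.00669). Sox11, a factor of young neurons, fell by 0.34 (SE 0.064, limma adjusted p = 0.00315). The other gene that fell was Neurod1, named after its values were seen (-0.22, adjusted p = 0.0292), and the number that fell was 1 without floxed control replicate 3 or any 1 cKO library. Of the 14, 0 passed against Cre controls by limma, beside 9.72% of all genes, and without Cre control replicate 1, 2 rose and 1 fell.

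Markers of progenitors and neurons also differed between the cKO and floxed controls. The 10 progenitor markers summed to 98508 to 103470 in floxed controls, 100220 to 108360 in Cre controls and 115040 to 122920 in the cKO on the linear scale. Of them, 7 rose against floxed controls by limma, beside 19.5% of all genes. Nes, an intermediate filament of neural progenitors, rose by 0.50 against floxed controls (limma adjusted p = 7.83e-04) and by 0.45 against Cre controls (adjusted p = 0.00749). The 10 neuron markers summed to 142560 to 153170, 113980 to 141120 and 100480 to 112970 in the same order. All 10 fell against floxed controls, beside 18.8% of all genes. With Cre controls as the reference, 3 progenitor markers rose and 4 neuron markers fell, beside 9.72% of all genes that passed in either direction. The count of neuron markers was 8 when Cre control replicate 1 was omitted, and 0 when replicate 2 or 3 of that group, or cKO replicate 1 or 2, was. That of progenitor markers was 5 when Cre control replicate 1 or cKO replicate 3 was omitted, and 1 when cKO replicate 1 was. The part of cell makeup in the members' differences was not tested.

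Markers of blood, vessels and mesenchyme moved as well against floxed controls. The erythroid markers, 9 of 10 tested, summed to 152480 to 259100 in floxed controls, 183330 to 210820 in Cre controls and 237800 to 459590 in the cKO, and the mesenchyme markers to 31192 to 55563, 38832 to 63870 and 65151 to 67716. The endothelial markers summed to 7287 to 9299.5, 8032.9 to 9985.5 and 9632.1 to 10331, and the microglia markers to 3705.9 to 4615.8, 4209 to 4587.4 and 4237.7 to 4944.4. By limma 6 erythroid, 7 mesenchyme, 6 endothelial and 1 microglia markers rose against floxed controls, and 4, 0, 0 and 0 against Cre controls. Of all genes 19.5% rose against floxed controls and 4.86% against Cre controls. Without 1 library, the numbers against floxed controls ranged from 1 to 9, 3 to 9, 2 to 7 and 0 to 5, with the highest in each case without floxed control replicate 2. The erythroid count was 1 to 3 without cKO replicate 1 or 3, or without floxed control replicate 1 or 3, and 9 when cKO replicate 2 was omitted. The mesenchyme count was 3 or 4 without any other 1 library, and the endothelial count was 2 or 3 without floxed control replicate 1 or 3, or cKO replicate 2. The microglia count was 0 without any other 1 library. Against Cre controls the erythroid count was 0 when replicate 2 or 3 of that group, or cKO replicate 1 or 3, was omitted, and 6 when cKO replicate 2 was. Of the midbrain markers 2 rose and 4 fell against floxed controls, beside 19.5% and 18.8% of all genes. In every list all markers tested were above 0 in the 9 libraries, and the part of these cells in the members' differences was not tested.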

How the data were processed

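RNA-seq of midbrain tissue at E13.5 was analysed from 1 deposited table of log2 values for 9 libraries, 3 per genotype, which the authors had normalized between libraries. The submitters' processing notes name FastQC 0.10.1, kallisto 0.46.1, DESeq2 and mm10, and the transformation is not given in the sources used here. The columns were matched to the samples by the labels. Each of 14029 named genes that reached 1 cpm of the summed linear values in 3 or more libraries was modelled by its genotype means over the 9 libraries, using limma 3.58.1 under R 4.3.3 (eBayes with a trend). P-values are two-sided and Benjamini-Hochberg adjusted over these genes. Rows without a gene name held 0.334% to 0.396% of the linear sum. That replicates are separate fetuses is read from the labels' wording, and p-values measure the spread between these libraries. The fit was tested on simulated data. Alternatives were other filters, the 6 libraries compared alone, a replicate block, eBayes without a trend, median centring, quantile normalization and leaving out single libraries. Genes named outside the members are those with the smallest adjusted p in each list (up to 6), and the 5 whose deviations were most like the members' mean. The members and lists were chosen with earlier results of these data known. Spans and exon lengths came from GENCODE M21 (GRCm38), and promoters from the RefSeq table of GRCm38.p6.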

Additional observations from a re-analysis of the deposited data

How the results depend on the processing

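The number of immediate early genes passing against floxed controls was 5 or 6 under the alternative filters, libraries, trend and normalizations, and 3 to 5 when 1 library was left out. Against Cre controls it was 2 to 4 under those alternatives, except with only the 6 libraries compared, where it was 1, and 0 to 3 when 1 library was left out. Between the controls it was 0 throughout. With only the 6 libraries compared, 6209, 437 and 3 of all genes passed in these comparisons, in the same order. The number above the trend of the spread was 5 to 7. With the replicate block the counts were 5, 4 and 0, and over all genes 5683, 1774 and 9 passed, beside 5380, 1363 and 8 without it. Junb then passed against Cre controls (limma adjusted p = 0.0401). With the block Gadd45g and Mapk8 also passed against Cre controls (0.0159 and 0.0351), and Plk3 did not (0.0566). After removal of the genotype means, libraries of the same number correlated at r = -0.027 to 0.26 (median 0.10). Those of different numbers correlated at -0.28 to 0.16 (median -0.053), and 7 of 9 libraries were closest to their own number. Libraries of the same number were thus somewhat more alike. The labels do not say that the numbers pair the libraries, and the main fit has no block. Calls such as that of Junb against Cre controls depend on this choice. For single members, 302 values kept their direction and call, 23 calls were lost, 4 were gained and 10 directions turned. All 10 were uncalled and arose when 1 library was left out. Nr4a1 turned to 0.0032 and 0.028 against floxed controls, in a range from -0.16 to 0.028, and to -0.044 against Cre controls (-0.044 to 0.14). Egr1 turned to -0.079 and -0.022 (-0.079 to 0.11) and Atf3 to -0.020 (-0.020 to 0.17) against Cre controls. Between the controls Jun turned to 0.041 (-0.080 to 0.041) and Junb to 0.024, 0.0024 and 0.0053 (-0.068 to 0.024). The cause was not tested. Without read counts the depth cannot be used to judge weak genes such as Fos and Fosb.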
